A study of Mus musculus domesticus and Mus musculus domesticus x Mus musculus castaneus and Mus musculus castaneus with 27 samples.

Results

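Motor neurons (MN) differentiated from pluripotent stem cells of the 129S6/SvEv strain (129 MN, 2 libraries) were compared by RNA sequencing with MN of C57BL/6 (BL6 MN, 7 libraries), which the series' design text writes as C57BL/6J. These 9 libraries were taken by name from the 20 of the series that have counts. The libraries were made to characterise, by their RNA, the cell lines of a culture model of neurite growth. The labels give a strain and a cell type for each library and nothing else that separates them: no batch, age, sex, treatment or number of cell lines is stated, and both groups have the same RNA kit and the same library protocol. All the neurons compared were made in culture, so each group stands for its stem cell line or lines as well as for its strain, and these cannot be told apart.

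Spinal motor neurons are cholinergic cells that drive muscle. They arise in the ventral neural tube, where Sonic hedgehog released by the floor plate at the midline sets progenitor fates and retinoic acid with growth factor signals sets the Hox code along the head-to-tail axis. Stem-cell cultures driven along this path usually hold other cells too, such as interneurons, floor plate, glia and non-neural cells.

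Depth differed between the groups. The 129 MN libraries held 44572794 and 41751493 counts, whereas the BL6 MN libraries held between 7599737 and 10364807. The 129 MN libraries were alike, with a correlation of log2 levels across genes of 0.99, and BL6 MN pairs ran from 0.927 to 0.985, whereas pairs of one 129 MN and one BL6 MN library ran from 0.816 to 0.849. The BL6 MN libraries were not equally far apart. The chi-square per degree of freedom between counts was 2.96 for BL6 MN 5 and 6 and 9 for BL6 MN 3 and 4. In other BL6 MN pairs it ran from 14.79 to 120.66. The fit treats all 7 as separate replicates. Since the labels do not say that replicates came from separate cultures, the p-values reflect the spread among these libraries alone, which may be technical. Genes on the opposite strand from a larger gene, very short or very long genes and a set of genes at 0 in one group behaved unlike the rest; their values are given after the biology. Of the genes named below, Nefm, Sox21, Nkx6-2, Hoxa3, Tap1, Gnas, Esrp1, Esrp2, Shh, Meg3, Rtl1, H19, Xist, Tgfb3, Eng, Sall4, Sox17, Notch1, Thbs1, Tulp2, Gm10767, mt-Nd6 and Wdr38 have an exon on a gene of the opposite strand without lying inside it, and Gfap, B2m, Actc1, Gm20721, Gm29233, Htra1 and Nucb1 lie inside one. No opposite-strand overlap below means that no exon lies on a gene of the opposite strand. Genes holding another gene only within an intron, such as Fgfr2, thus count as having no overlap.

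Compared with BL6 MN, 129 MN had more RNA of simple epithelium, floor plate, skeletal muscle and interferon-induced genes. It had less RNA of several inhibitory transmitter, spinal interneuron, fibroblast matrix and tail-side Hox genes. Most general neuronal genes did not pass the test. Of 14837 genes tested, 5397 passed at an adjusted p under 0.05, which is 36.4%: 2717 (18.3%) were higher and 2680 (18.1%) lower in 129 MN. The median log2 fold change over all genes tested was 0.00. These shares are the background against which each list count below stands. Without 129 MN 1 there were 3220 calls (1501 higher and 1719 lower), and without 129 MN 2 there were 2800 (1385 higher and 1415 lower). For 42.3% of genes both 129 MN libraries lay on one side of all 7 BL6 MN libraries, above them for 22.9% and below them for 19.4%. Levels are in CPM, meaning counts divided by the library total after TMM adjustment (factors of 0.901 to 1.05 in these libraries), and fold changes are 129 MN over BL6 MN on the log2 scale with their standard error (SE). Every adjusted p comes from the quasi-likelihood test of edgeR, adjusted over all genes tested by the Benjamini-Hochberg method. Called below means an adjusted p under 0.05. In bulk RNA, fewer cells of a type and less RNA per cell cannot be told apart.

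The cholinergic and LIM-homeodomain genes of motor neurons were lower or did not pass. Of 20 motor neuron genes, 2 were higher and 5 lower, with a median of -0.70. Over all genes tested, 18.3% were higher and 18.1% lower. Slc18a3, the vesicular acetylcholine transporter, had 25.1 and 37.2 CPM in the 129 MN libraries, against 38.1 to 170.0 CPM (median 80.7) in the BL6 MN libraries. The 129 MN libraries lay below every BL6 MN library, and BL6 MN 2 stood far above the rest; the log2 fold change was -1.49 ± 0.42 (SE; adjusted p = 0.015). Slc5a7, the choline transporter, was also lower, at -1.37 ± 0.24 (SE; adjusted p = 0.00068). Chat, which makes acetylcholine, had 3.92 and 5.52 CPM in 129 MN and 3.72 to 14.6 CPM (median 10.5) in BL6 MN, so the groups overlapped, and its change of -1.05 did not pass (adjusted p = 0.089). The same held for Isl1, a transcription factor of postmitotic motor neurons, with 10.3 and 13.6 CPM in 129 MN and 6.89 to 19.04 CPM (median 13.7) in BL6 MN (adjusted p = 0.51). Mnx1, which marks motor neurons in the spinal cord, had 1.36 and 1.96 CPM in 129 MN and 1.97 to 11.02 CPM in BL6 MN and missed the threshold (adjusted p = 0.083). Both genes passed in some other settings but not in the rest. Chat passed with the 129 libraries thinned to BL6 depth (-1.38, adjusted p = 0.044) and without BL6 MN 7 (-1.19, adjusted p = 0.03). With DESeq2, Chat passed at -1.09 and Mnx1 at -1.51.

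Further LIM-homeodomain regulators of motor neuron fate were called lower: Lhx4 at -1.80 ± 0.40 (SE; adjusted p = 0.0033), Isl2 at -1.07 ± 0.37 (SE; adjusted p = 0.04) and Lhx3 at -3.22 ± 0.89 (SE; adjusted p = 0.016). The call of Isl2 was lost with the exon length correction (-0.76, adjusted p = 0.14), with a replicate block, and without BL6 MN 3, 5 or 7 or either 129 MN library. All were scarce in both groups, with mean levels of 1.73, 1.58 and 0.191 CPM in 129 MN and of 6.01, 3.33 and 1.83 CPM in BL6 MN. Foxp1, found in limb-innervating motor neurons, was higher by 0.54; it is a long gene, and its change was 0.04 after a correction for exon length (adjusted p = 0.85). With 129 MN 1 left out the list held 1 higher and 1 lower call, and with 129 MN 2 left out 0 and 2. DESeq2 called 10 members lower.

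Few general neuronal genes passed the test. Of 20 pan-neuronal genes 0 were higher and 2 lower, with a median of -0.21. Tubb3, a tubulin of neurons, had 449.9 and 549 CPM in 129 MN and 417 to 1129 CPM (median 604) in BL6 MN, and Map2, a dendritic cytoskeletal protein, had 434 and 681 CPM in 129 MN and 208 to 737 CPM (median 348) in BL6 MN. For both genes the 129 MN libraries fell inside the BL6 MN range. The called members were Nefm, a neurofilament, at -1.29 ± 0.38 (SE; adjusted p = 0.019), and Uchl1, a neuronal deubiquitinase, at -0.74 ± 0.16 (SE; adjusted p = 0.0033). Nefm overlaps a gene on the opposite strand. Uchl1 did not pass after the exon length correction (adjusted p = 0.15), which left 1 lower call in the list. Of 29 genes of synaptic transmission 2 were higher and 1 lower, with a median of 0.02. The higher ones were the presynaptic scaffolds Pclo at 1.41 ± 0.41 (SE; adjusted p = 0.017) and Rims1 at 1.39 ± 0.35 (SE; adjusted p = 0.01), and the lower one was the fusion regulator Cplx2 at -0.74 ± 0.20 (SE; adjusted p = 0.011). That count rested on BL6 MN 2, the library with the highest level of Pclo and Rims1 in its group: without it, 11 members were higher and 1 lower. Without 129 MN 2 the list held 0 calls. Pclo changed by 0.61 after the exon length correction and did not pass (adjusted p = 0.18). Rims1 was at 0 CPM in the hybrids CAS129 MN and 129CAS MN but at 86.9 CPM in CAST MN, and the cause was not tested.

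**Figure D1:**
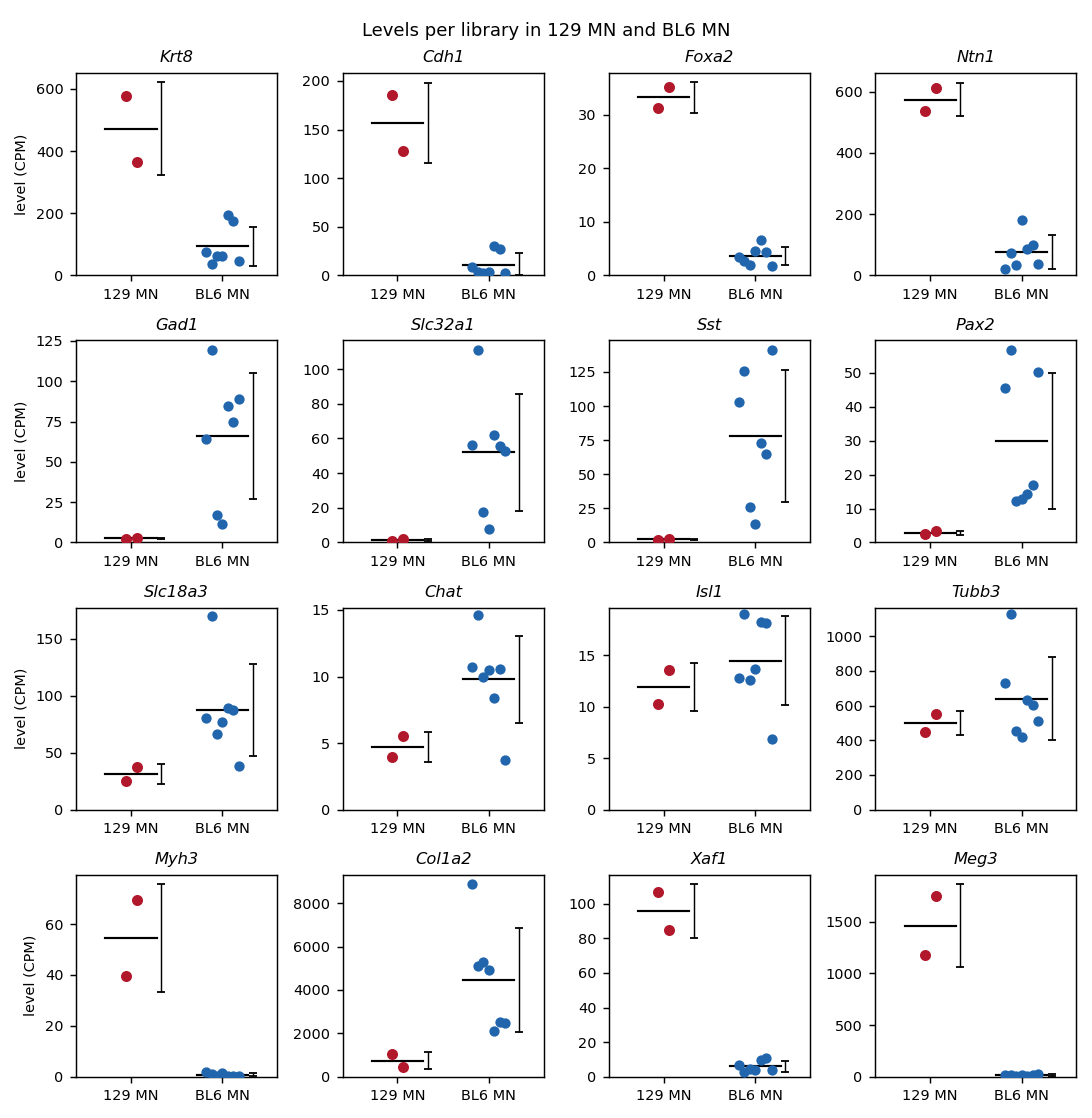
Levels in CPM of 16 genes in each of the 2 129 MN libraries (red) and 7 BL6 MN libraries (blue), with the mean (line) and SD (bar beside it; cut at 0). Krt8, Cdh1, Foxa2, Ntn1, Myh3, Xaf1 and Meg3 lay above the BL6 MN range in 129 MN, Gad1, Slc32a1, Sst, Pax2, Slc18a3 and Col1a2 lay below it, and Chat, Isl1 and Tubb3 overlapped.

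Most genes of simple epithelium were higher. Of 23 tested members 21 were higher in 129 MN and 0 lower, with a median of 2.95. Krt8, a keratin of simple epithelia, had 577 and 366 CPM in the 129 MN libraries, against 37.5 to 194 CPM (median 62.3) in the BL6 MN libraries. Both 129 MN libraries were above all BL6 MN libraries, with a log2 fold change of 2.34 ± 0.49 (SE; adjusted p = 0.0022). Its partner Krt18 had 506 and 321 CPM in 129 MN and 37.9 to 159 CPM (median 57.2) in BL6 MN, and Krt7 changed by 3.77 ± 0.29 (SE; adjusted p = 5.5e-07). Cell-cell junction genes followed. Cdh1, the epithelial cadherin, had 186 and 128 CPM in the 129 MN libraries, against 1.87 to 29.8 CPM (median 3.55) in the BL6 MN libraries, a change of 3.82 ± 0.72 (SE; adjusted p = 0.0012). Dsp, which anchors desmosomes to keratin, had 818 and 562 CPM in 129 MN and 31.3 to 152 CPM (median 71.1) in BL6 MN, and the tight-junction gene Cldn6 changed by 4.11 ± 0.46 (SE; adjusted p = 1.6e-05). Esrp1, an epithelial splicing factor, had 15.7 and 9.56 CPM in 129 MN against at most 0.651 CPM in BL6 MN; it overlaps a gene on the opposite strand.

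The 2 members of the list that were not called were Pkp2, a desmosomal plaque gene, with 90.6 and 70.1 CPM in 129 MN and 24.05 to 109 CPM (median 60.3) in BL6 MN, and Esrp2, with an adjusted p of 0.061. Averaged over the list as log2(CPM + 1), the level was 5.88 in 129 MN 1 and 5.31 in 129 MN 2, and 2.46 to 3.75 in the BL6 MN libraries. The counts were 18 higher without 129 MN 1 and 20 without 129 MN 2. In the single library labelled 129CAS MN, from a hybrid of 129S6/SvEv and CAST/EiJ, Krt8 was at 789 CPM and Cdh1 at 69.9 CPM, while in the single CAST MN library they were at 94.8 and 6.63 CPM. Krt8 averaged 64.2 CPM and Dsp 96.0 CPM in the 3 libraries of CAS129 MN, the other hybrid of these strains. Both means lay inside the BL6 MN range.

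Most floor plate and ventral midline genes were higher as well. Of 15 tested members 11 were higher and 1 lower in 129 MN, with a median of 2.37. Foxa2, the transcription factor that specifies floor plate, had 31.3 and 35.3 CPM in the 129 MN libraries, against 1.79 to 6.62 CPM (median 3.41) in the BL6 MN libraries. The groups were far apart, with a change of 3.20 ± 0.36 (SE; adjusted p = 2.0e-05). Foxa1, a related factor, changed by 3.24 ± 0.50 (SE; adjusted p = 0.00025). Of the secreted signals of the midline, Shh had 23.8 and 48.1 CPM in 129 MN and 1.5 to 11.6 CPM (median 3.36) in BL6 MN, and Ntn1, the netrin that attracts commissural axons, had 535 and 613 CPM in 129 MN and 20.05 to 182 CPM (median 74.3) in BL6 MN. Ntn1 changed by 2.93 ± 0.53 (SE; adjusted p = 0.00086) and was the most abundant of the higher members. Nkx2-2, a marker of the adjoining progenitor domain, was higher by 1.92. Nkx6-2, a homeodomain gene of ventral progenitors, was the member called lower, with 2.07 and 3.42 CPM in 129 MN and 12.7 to 18.8 CPM (median 14.6) in BL6 MN; it overlaps a gene on the opposite strand, as does Shh.

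Leaving out 129 MN 1 left 8 higher members and leaving out 129 MN 2 left 7. Of 10 genes of the hedgehog pathway, which floor plate activates, 1 was higher and 2 lower, with a median of -0.02, and 0 were called without 129 MN 1 or without 129 MN 2. Foxa2 also marks definitive endoderm. In the endoderm list 5 of 15 tested members were higher and 2 lower, with a median of 1.63, and 2 were higher without 129 MN 1. Sox17, an endoderm and endothelial regulator, had 19.9 and 15.97 CPM in 129 MN and 1.05 to 7.92 CPM (median 2.71) in BL6 MN, and Gata4, of endoderm and heart, had 30.5 and 24.7 CPM in 129 MN and 3.42 to 15.8 CPM (median 7.23) in BL6 MN. The lower members were Apoa2 at -4.75 (adjusted p = 0.00043) and Amn at -2.14 (adjusted p = 0.016). Both were scarce, with means of 0.0456 and 0.697 CPM in 129 MN and 1.43 and 3.08 CPM in BL6 MN. The part of endoderm genes in the Foxa2 result was not tested. Of 16 neural progenitor genes 4 were higher and 0 lower, and 2 were higher without 129 MN 2. Sox2, which maintains neural progenitors, had 38.2 and 49.7 CPM in 129 MN and 1.9 to 21.3 CPM (median 8.68) in BL6 MN, a change of 2.35 ± 0.58 (SE; adjusted p = 0.0066). Prom1, a membrane protein of progenitors and epithelia, changed by 3.13 ± 0.53 (SE; adjusted p = 0.0005).

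Several markers of inhibitory neurons were lower. Of 18 genes of inhibitory transmission 6 were lower and 1 higher, with a median of -0.63. Gad1, which makes GABA, had 2.2 and 2.83 CPM in the 129 MN libraries, against 11.7 to 119 CPM (median 74.7) in the BL6 MN libraries. That is a change of -4.71 ± 0.85 (SE; adjusted p = 0.00087), with the BL6 MN libraries themselves spread widely. Slc32a1, the vesicular transporter of GABA and glycine, had 0.824 and 1.92 CPM in 129 MN and 8.02 to 111 CPM (median 55.8) in BL6 MN and changed by -5.24 ± 0.97 (SE; adjusted p = 0.00099). Slc6a5, the glycine transporter of glycinergic neurons, had 1.58 and 1.44 CPM in 129 MN and 7.23 to 88.3 CPM (median 36.6) in BL6 MN and changed by -4.69 ± 0.87 (SE; adjusted p = 0.0011). Gad2, the second GABA-synthesising enzyme, overlapped between the groups, with 7.57 and 13.4 CPM in 129 MN and 6.18 to 38.1 CPM (median 22.2) in BL6 MN, and did not pass (adjusted p = 0.13). Of the receptor subunits, Glra3 (glycine) was lower, at -2.23 ± 0.70 (SE; adjusted p = 0.024), whereas Gabra2 (GABA) was higher, with 68.2 and 109 CPM in 129 MN and 11.8 to 34.7 CPM (median 17.4) in BL6 MN. Slc17a6, the vesicular glutamate transporter of spinal neurons, had 41.2 and 48.4 CPM in 129 MN and 12.2 to 92.3 CPM (median 47.01) in BL6 MN and was not called. The lower calls fell to 3 without 129 MN 1 and to 3 without 129 MN 2.

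Several transcription factors of spinal interneurons were lower too. Among 21 interneuron factors 7 were lower and 3 higher, with a median of -0.73. Pax2, of GABAergic and glycinergic interneurons, had 2.47 and 3.33 CPM in the 129 MN libraries, against 12.1 to 56.8 CPM (median 17.03) in the BL6 MN libraries, a change of -3.36 ± 0.71 (SE; adjusted p = 0.0026). Bhlhe22, of dorsal interneurons, changed by -3.15 ± 0.49 (SE; adjusted p = 0.00026) and Tal1, of inhibitory V2b neurons, by -2.85 ± 0.62 (SE; adjusted p = 0.003). Evx1 at -3.63 and Tlx3 at -2.43 were also called lower, and 11 members were not called. The higher members were Lmx1b, of serotonergic and dorsal neurons, at 2.31 ± 0.48 (SE; adjusted p = 0.0022), and also Sox21 and Uncx. Of 22 neuropeptide genes 3 were lower and 0 higher, with a median of -0.52, while 18.1% of all genes tested were lower. Sst, somatostatin, had 1.83 and 2.62 CPM in 129 MN and 13.5 to 141 CPM (median 72.99) in BL6 MN and changed by -5.13 ± 0.88 (SE; adjusted p = 0.00057). Cck changed by -4.07 and Pdyn, prodynorphin, by -2.58. Without 129 MN 1, and likewise without 129 MN 2, the interneuron list held 4 lower calls and the peptide list 2.

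Within BL6 MN the inhibitory genes did not vary alone. BL6 MN 2, which had the highest Gad1 and Slc32a1, also had the highest Slc18a3, Tubb3 and Chat of its group. In CAS129 MN, also a hybrid of these strains, Gad1 averaged 6.85 CPM over 3 libraries; it was 6.96 CPM in 129CAS MN and 10.95 CPM in CAST MN. Monoaminergic genes were higher in 129 MN for 4 of 10 tested members and lower for 0, and for 2 without 129 MN 2. Fev, a transcription factor of serotonergic neurons, had 2.52 and 4.27 CPM in 129 MN and at most 0.232 CPM in BL6 MN, where its median was 0. Slc6a4, the serotonin transporter, had 17.7 and 18.3 CPM in 129 MN and 1.2 to 4.11 CPM (median 1.85) in BL6 MN, a change of 2.97 ± 0.35 (SE; adjusted p = 2.7e-05). Th and Tph2, the rate-limiting enzymes of catecholamine and serotonin synthesis, were not called and averaged 0.326 and 0.842 CPM in 129 MN and 1.17 and 0.682 CPM in BL6 MN.

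**Figure D2:**
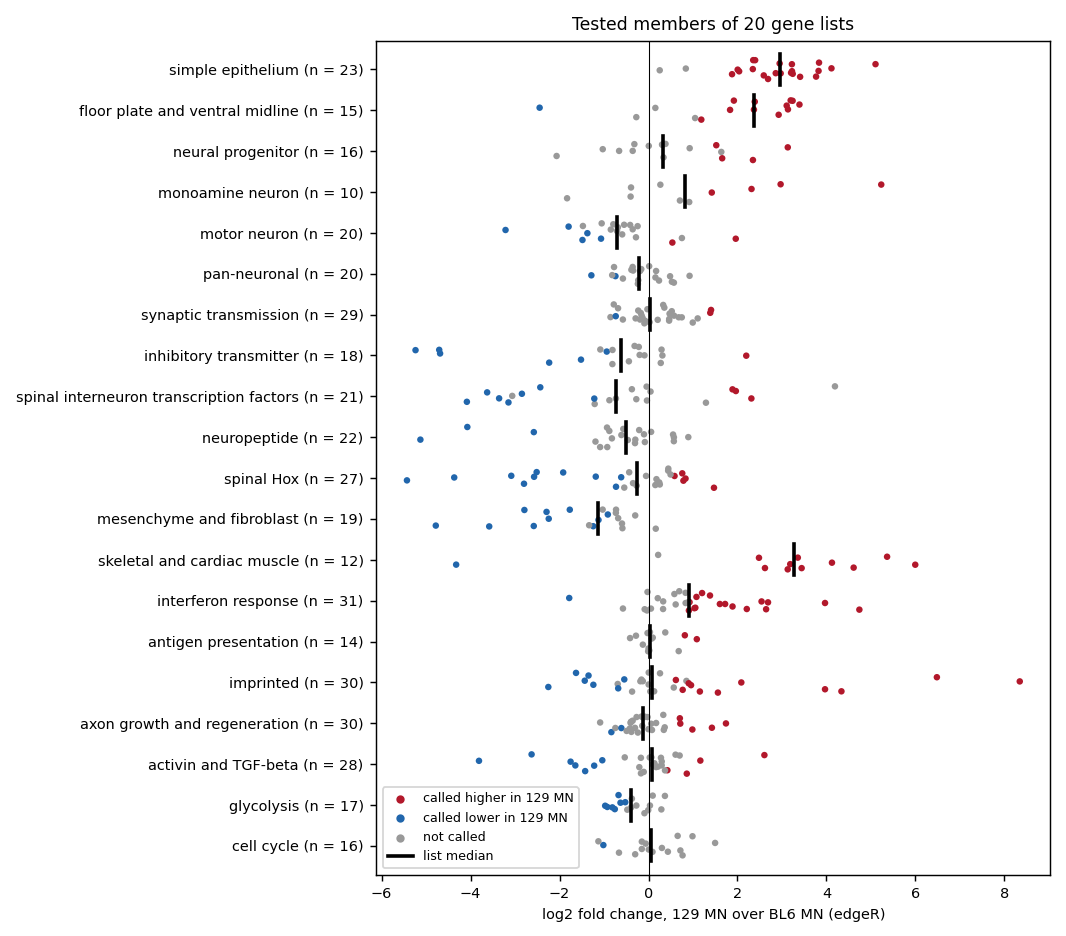
Log2 fold change (129 MN over BL6 MN) of each tested member of 20 gene lists, coloured by call, with the list median as a black bar. Simple epithelium, floor plate and muscle members lie mostly to the right and fibroblast members to the left, while pan-neuronal and synaptic members centre near 0; the points of Rtl1 in the imprinted list and Foxd3 in the interneuron list are fitted values against BL6 MN libraries at 0 counts.

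Hox genes, whose paralog number rises from the head to the tail end of the body, split by that number. Of 12 tested genes of paralogs 2 to 5, 4 were higher and 1 lower, with a median of 0.44. Of 14 tested genes of paralogs 6 to 10, 0 were higher and 9 lower, with a median of -1.55. Hoxa4 had 25.03 and 33.04 CPM in the 129 MN libraries, against 11.8 to 20.8 CPM (median 17.4) in the BL6 MN libraries, a change of 0.83 ± 0.20 (SE; adjusted p = 0.0062). With Hoxa3, Hoxb4 and Hoxb5 it made up the higher genes, whose changes lay between 0.58 and 0.83. The lower gene of the head-side set was Hoxc5, at -0.61. On the tail side, Hoxc8, expressed at brachial to thoracic levels, had 1.6 and 1.28 CPM in the 129 MN libraries, against 13.01 to 41.8 CPM (median 31.7) in the BL6 MN libraries. Its change was -4.37 ± 0.51 (SE; adjusted p = 2.5e-05), and Hoxa9 changed by -5.43 ± 0.97 (SE; adjusted p = 0.00079), to a mean of 0.079 CPM. Hoxc6, which marks brachial motor neurons, had 13.7 and 11.8 CPM in 129 MN and 31.6 to 66.9 CPM (median 47.5) in BL6 MN. Hoxc9, of thoracic levels, changed by -3.09 ± 0.65 (SE; adjusted p = 0.0025).

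Within the Hoxb cluster, Hoxb6, Hoxb7 and Hoxb8 had log2 fold changes of 0.24, -0.44 and -0.35 and were not called, and Hoxb9 fell by 0.73, with 78.6 and 71.9 CPM in 129 MN and 108 to 148 CPM (median 117) in BL6 MN. Clusters were not tested against each other. Of the 10 lower Hox calls, 8 were made without 129 MN 1 and 7 without 129 MN 2. Without 129 MN 2, Hoxa3 (adjusted p = 0.069), Hoxa4 (adjusted p = 0.14) and Hoxb5 (adjusted p = 0.21) were no longer called higher, which left Hoxb4. The call of Hoxb5 was also lost without 129 MN 1 or without BL6 MN 1, 3, 5, 6 or 7, and that of Hoxc5 without either 129 MN library or without BL6 MN 1, 4, 5 or 7. In the single CAST MN library, Hoxc8 was at 0.421 CPM and Hoxa9 at 0.105 CPM.

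**Figure D3:**
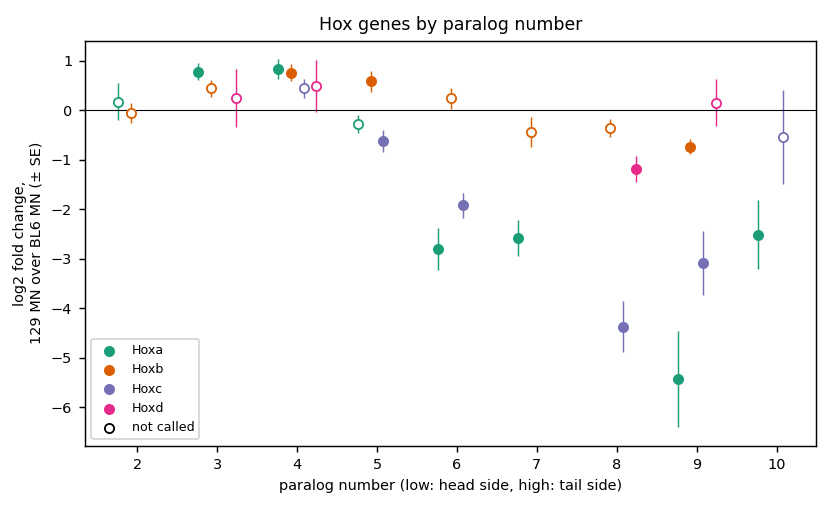
Log2 fold change (129 MN over BL6 MN, with SE bars) of 26 Hox genes against paralog number, coloured by cluster; open circles did not pass the test. Paralogs 2 to 5 lie between -0.61 and 0.83, and paralogs 6 to 10 between -5.43 and 0.24.

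Genes of other non-neural cells also differed. Of 19 mesenchyme and fibroblast genes 10 were lower in 129 MN and 0 higher, with a median of -1.13. Col1a2, a chain of type I collagen, had 1030 and 465 CPM in the 129 MN libraries, against 2119 to 8887 CPM (median 4901) in the BL6 MN libraries, a change of -2.58 ± 0.57 (SE; adjusted p = 0.0034). Its partner chain Col1a1 changed by -1.77 ± 0.47 (SE; adjusted p = 0.011), Fbln2, a matrix glycoprotein, by -2.79 ± 0.48 (SE; adjusted p = 0.00058), and Pdgfrb, a receptor of pericytes and fibroblasts, by -2.29 ± 0.30 (SE; adjusted p = 6.6e-05). Thy1, which both fibroblasts and neurons carry, had 20.3 and 17.4 CPM in 129 MN and 163 to 315 CPM (median 201) in BL6 MN. Fn1, fibronectin, and Acta2, smooth muscle actin, overlapped between the groups and were not called. The list averaged 8.19 in 129 MN 1, 7.69 in 129 MN 2 and 8.97 to 9.75 in BL6 MN libraries as log2(CPM + 1). Leaving out 129 MN 1 left 8 lower calls, and leaving out 129 MN 2 left 4.

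Most muscle genes were higher: of 12 tested members 10 rose and 1 fell, with a median of 3.27. Myh3, the embryonic myosin heavy chain, had 39.5 and 69.4 CPM in the 129 MN libraries, against 0.116 to 1.9 CPM (median 0.413) in the BL6 MN libraries, a change of 6.00 ± 0.49 (SE; adjusted p = 8.6e-07). Myog, a master regulator of muscle differentiation, had 7.48 and 8.78 CPM in 129 MN and at most 0.802 CPM in BL6 MN. Ttn, the giant sarcomere protein, changed by 5.36 ± 0.45 (SE; adjusted p = 1.2e-06). Des, the muscle intermediate filament, was the exception, with 42.5 and 41.1 CPM in 129 MN and 181 to 1632 CPM (median 714) in BL6 MN; its change was -4.33 ± 0.92 (SE; adjusted p = 0.0025). Of 10 tested glial genes 3 were higher and 2 lower. Erbb3, a receptor of Schwann cell precursors, changed by 2.77 ± 0.33 (SE; adjusted p = 3.0e-05), while Gfap, of astrocytes, was at 0.134 and 0.297 CPM in 129 MN and 0.374 to 140.4 CPM in BL6 MN and lies inside a gene on the opposite strand; its call (adjusted p = 0.049) was lost without either 129 MN library or without BL6 MN 1, 5 or 6. Of 8 endothelial and blood genes 3 were higher and 1 lower, with a median of 0.32. Cdh5, the endothelial cadherin, had 31.8 and 32.7 CPM in 129 MN and 2.75 to 15.2 CPM (median 9.73) in BL6 MN. The lower member, Emcn, changed by -3.99 (adjusted p = 0.022), with means of 0.192 CPM in 129 MN and 3.20 CPM in BL6 MN. Whether any of these cells contributed to another result was not tested.

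Many interferon-induced genes were higher. Of 31 tested members 16 were higher and 1 lower, with a median of 0.91. Xaf1, an interferon-induced regulator of cell death, had 107 and 84.6 CPM in the 129 MN libraries, against 2.81 to 11.004 CPM (median 4.61) in the BL6 MN libraries, a change of 3.97 ± 0.36 (SE; adjusted p = 2.5e-06). Rsad2, an antiviral enzyme, had 11.5 and 13.7 CPM in 129 MN and 0.125 to 0.811 CPM (median 0.394) in BL6 MN, and Ifit1, which binds viral RNA, had 22.2 and 30.4 CPM in 129 MN and 2.93 to 7.41 CPM (median 3.74) in BL6 MN. Ifit1 changed by 2.64 ± 0.29 (SE; adjusted p = 1.4e-05) and Ddx58, the RNA sensor RIG-I, was higher, with 76.96 and 65.2 CPM in 129 MN and 18.5 to 37.7 CPM (median 31.9) in BL6 MN. Stat2, a transcription factor downstream of the interferon receptor, was higher by 1.08 ± 0.26 (SE; adjusted p = 0.0056). The receptor gene Ifnar1 was not called, with 135 and 124 CPM in 129 MN and 87.2 to 126 CPM (median 118) in BL6 MN. Socs1, which damps this signalling, was lower, with 2.54 and 2.62 CPM in 129 MN and 7.3 to 10.3 CPM (median 8.73) in BL6 MN. The calls were 11 higher without 129 MN 1 and 12 without 129 MN 2, and 15 to 17 without 1 BL6 MN library.

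Antigen presentation genes mostly did not pass. Of 14 tested members 2 were higher and 0 lower, with a median of 0.02. The list held 19 genes. Its MHC class I genes H2-K1, H2-D1, H2-T22, H2-T23 and H2-Q4 are absent from the counts used here, so their levels were not measured. Tap1, a subunit of the peptide transporter that loads MHC class I, had 62.3 and 55.5 CPM in the 129 MN libraries, against 23.9 to 31.99 CPM (median 27.1) in the BL6 MN libraries. The groups did not overlap and the change was 1.09 ± 0.12 (SE; adjusted p = 2.2e-05); Tap1 overlaps a gene on the opposite strand. Tapbp, which bridges that transporter to MHC class I, changed by 0.82 ± 0.15 (SE; adjusted p = 0.0011). B2m, the light chain of MHC class I, had 263 and 242 CPM in 129 MN and 220.2 to 319 CPM (median 245) in BL6 MN and a change of -0.01 (adjusted p = 0.97); it lies inside a gene on the opposite strand and was 0.54 higher after the exon length correction (adjusted p = 0.0062).

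Imprinted genes changed in both directions. Of 30 tested members 11 were higher and 7 lower, with a median of 0.08. The largest rises lay together on chromosome 12 (GRCm38), in the Dlk1-Meg3 domain. Meg3, a maternally expressed noncoding RNA at chr12:109541001-109571726 on the plus strand, had 1178 and 1744 CPM in the 129 MN libraries, against 10.7 to 27.3 CPM (median 15.8) in the BL6 MN libraries. Its neighbours Rian and Mirg had 886 and 1142 CPM and 28.5 and 35.5 CPM in 129 MN, against medians of 52.2 and 2.17 CPM in BL6 MN. The changes were 6.48 ± 0.33 (SE; adjusted p = 1.0e-08) for Meg3, 4.34 ± 0.19 (SE; adjusted p = 3.3e-09) for Rian and 3.97 ± 0.29 (SE; adjusted p = 3.3e-07) for Mirg. Rtl1, which overlaps on the opposite strand, had 3.1 and 2.44 CPM in 129 MN and 0 counts in all 7 BL6 MN libraries, at least 56.01-fold higher against a floor of 3 counts over the BL6 MN group.

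Dlk1, the paternally expressed gene of the domain, moved the other way, with 56.3 and 55.6 CPM in 129 MN and 131 to 347 CPM (median 295) in BL6 MN and a change of -2.25 ± 0.32 (SE; adjusted p = 0.00014). Meg3 was also well above the BL6 MN range in the other genotypes, at a mean of 805 CPM in CAS129 MN, 1727 CPM in 129CAS MN and 1838 CPM in CAST MN. Elsewhere, Igf2, the paternally expressed growth factor, had 170.3 and 159 CPM in 129 MN and 14.8 to 57.6 CPM (median 43.1) in BL6 MN, while H19, its maternally expressed neighbour, overlapped between the groups. Peg10, a paternally expressed retrotransposon-derived gene, changed by 1.56 ± 0.24 (SE; adjusted p = 0.00044). It was at 0 CPM in CAS129 MN and 129CAS MN but at 2185 CPM in CAST MN, and why it was 0 in both hybrids was not tested. Igf2r and Grb10, both growth-restraining, changed by -1.43 ± 0.24 (SE; adjusted p = 0.00045) and -1.63 ± 0.30 (SE; adjusted p = 0.0011).

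Among known allele differences between the strains, Nnt, a mitochondrial transhydrogenase in which C57BL/6J carries a deletion, was at 64.5 and 51.9 CPM in 129 MN and 0.131 to 0.401 CPM in BL6 MN, a change of 7.74 ± 0.18 (SE; adjusted p = 3.8e-11). Disc1, in which 129 strains carry a frameshift, had 1.8 and 2.03 CPM in 129 MN and 2.62 to 4.81 CPM (median 3.36) in BL6 MN and did not pass (adjusted p = 0.082). On the X chromosome, Eif2s3x and Kdm6a, which escape X inactivation, were higher in 129 MN, at 1.04 ± 0.11 (SE; adjusted p = 1.1e-05) and 1.07 ± 0.14 (SE; adjusted p = 5.9e-05). Xist, the RNA that silences one X chromosome, had 4.16 and 3.9 CPM in 129 MN and 0.249 to 1.2 CPM (median 0.927) in BL6 MN; it overlaps its antisense partner. Over all genes of the X chromosome with no opposite-strand overlap the median change was 0.18 (439 genes), against 0.06 on the autosomes (10751 genes).

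Genes of axon growth, which the culture model was built to study, mostly did not pass. Of 30 tested members 5 were higher and 2 lower, with a median of -0.13, against 18.3% higher and 18.1% lower over all genes tested. Sox11, a transcription factor of axon growth, had 431 and 656 CPM in the 129 MN libraries, against 157 to 262 CPM (median 198) in the BL6 MN libraries, a change of 1.42 ± 0.18 (SE; adjusted p = 4.0e-05). Dpysl2, the collapsin response mediator CRMP2, changed by 1.74 ± 0.27 (SE; adjusted p = 0.0003). Map1b, a microtubule protein of growing axons, had 3415 and 4402 CPM in 129 MN and 1470 to 3298 CPM (median 1859) in BL6 MN; it is a long gene, and its change of 0.99 became 0.43 after the exon length correction (adjusted p = 0.13). The lower members were Basp1, a growth cone protein, at -0.84 ± 0.22 (SE; adjusted p = 0.0096), and Jun at -0.61 ± 0.15 (SE; adjusted p = 0.0078). Basp1 did not pass after the exon length correction (-0.49, adjusted p = 0.11). Without 129 MN 1 no member was lower, and without 129 MN 2, 3 were higher.

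In the activin and TGF-beta pathway 7 of 28 tested members were lower and 4 higher, with a median of 0.08. The shares over all genes tested were 18.1% lower and 18.3% higher. Of the ligands, Inhba, which encodes the activin A subunit, had 248 and 172 CPM in the 129 MN libraries, against 316 to 1062 CPM (median 687) in the BL6 MN libraries, a change of -1.75 ± 0.39 (SE; adjusted p = 0.0033). Tgfb1 and Tgfb3 changed by -1.42 ± 0.31 (SE; adjusted p = 0.0028) and -1.65 ± 0.43 (SE; adjusted p = 0.0089). Of the receptors, Acvrl1 and its endothelial partner Eng were lower, at -3.81 ± 0.62 (SE; adjusted p = 0.00041) and -2.63 ± 0.54 (SE; adjusted p = 0.0022). Fst, the secreted inhibitor that binds activin, was higher, with 309.6 and 276 CPM in 129 MN and 127 to 201 CPM (median 162) in BL6 MN. Without 129 MN 2, 2 members were higher and 2 lower, and without BL6 MN 2, 7 were higher.

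Of 18 immediate early genes 5 were lower and 1 higher, against 18.1% lower and 18.3% higher over all genes tested. Egr1, induced by activity and stress, had 37.6 and 44.95 CPM in 129 MN and 28.3 to 287 CPM (median 146) in BL6 MN, with an overlap. The higher one, Jund, had 203 and 228 CPM in 129 MN and 0.2 to 1.12 CPM (median 0.463) in BL6 MN. It was at 234 CPM in CAST MN, 72.9 CPM in CAS129 MN and 69.8 CPM in 129CAS MN. Jund was thus near 0 in one group, as were the genes with the widest differences, described below. The lower calls were 0 without 129 MN 1 and 1 without 129 MN 2. Glycolysis genes were lower for 7 of 17 and higher for 0, with a median of -0.39. Ldha, lactate dehydrogenase A, had 224 and 224 CPM in 129 MN and 415 to 470.0 CPM (median 434) in BL6 MN, a change of -0.98 ± 0.13 (SE; adjusted p = 6.9e-05). Without 129 MN 2 the list held 3 lower calls. Of 16 cell cycle genes 0 were higher and 1, Mcm6, was lower; Mki67, a marker of dividing cells, had 26.2 and 28.2 CPM in 129 MN and 1.74 to 26.03 CPM (median 4.81) in BL6 MN (adjusted p = 0.095). Naive pluripotency genes were mixed, with 7 of 18 higher and 4 lower, and 4 higher without 129 MN 1. Pou5f1, the core pluripotency factor, was lower, with 0.0445 and 0.114 CPM in 129 MN and 0.401 to 1.71 CPM (median 1.37) in BL6 MN. Sall4, a stem cell factor that overlaps a gene on the opposite strand, was higher, with 7.73 and 7.12 CPM in 129 MN and 0.232 to 0.789 CPM (median 0.601) in BL6 MN. Of 14 heat shock genes 2 were higher and 5 lower, of 13 sensory neuron genes 4 were higher and 0 lower, and of 5 glutamate transmitter genes 1 was higher and 0 lower. Heat shock genes held 0 higher calls without 129 MN 1 and 3 lower calls without 129 MN 2. The sensory list held 2 higher calls without 129 MN 2 and 2 with the length correction, and the glutamate list 0 without either 129 MN library.

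The widest differences were of another kind, with a gene near 0 in one group. Among genes not lying inside another gene, the 10 largest rises included Myadm at 679 and 522 CPM, Raver1 at 62.9 and 64.1 CPM and B4gat1 at 60.9 and 59.96 CPM in 129 MN, each with 0 counts in all BL6 MN libraries. Against the floor of 3 counts over the group, these were at least 12151-fold, 1284-fold and 1223-fold higher. The other 7 were Gm5814, Gm25032, Ado, Mir692-1, Gm340, BC005561 and 1 identifier with no match in the annotation. Falls included Fau, a ribosomal protein fused to a ubiquitin-like peptide, with 0 counts in 129 MN and 179 to 300.2 CPM in BL6 MN, at least 7608-fold lower. Tufm, a mitochondrial translation factor, had 0 and 0.0228 CPM in 129 MN and 71.05 to 99.7 CPM (median 83.5) in BL6 MN. Hspb1, a small heat shock protein, had 0.178 and 0.137 CPM in 129 MN and 229 to 658 CPM (median 467) in BL6 MN. Of 15 mitochondrially encoded genes listed, 3 were tested and all 3 were lower, and the others are absent from the counts used here. The other falls were mt-Cytb, mt-Nd6, mt-Tp, 1700022I11Rik, Fndc10, Gm10767 and Sowahc.

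Such genes were set apart after the data were seen. At 0 in all BL6 MN libraries and at 1 CPM or more in 129 MN stood 81 genes, of which 76 also had 0 counts in both BL6 stem cell libraries and 9 in CAST MN. At 0 in both 129 MN libraries and at 1 CPM or more in BL6 MN stood 88 genes, of which 77 also had 0 counts in 129CAS MN and 17 in CAST MN. Fau was at 0 in CAS129 MN, 129CAS MN and CAST MN as well, and Hspb1 was at 2.1, 0.283 and 0.421 CPM there. Among genes with no opposite-strand overlap and at least 1 CPM in both groups, also chosen after their values were seen, the largest rises were Galnt2, a glycosyltransferase, at 7.40 ± 0.25 (SE; adjusted p = 2.5e-10), Rps10, a ribosomal protein, at 6.54 ± 0.20 (SE; adjusted p = 1.6e-10), and Myl12b, a myosin light chain, at 6.06 ± 0.23 (SE; adjusted p = 9.3e-10). The largest falls were Esd, an esterase, at -7.40 ± 0.52 (SE; adjusted p = 2.0e-07), Rpl34, a ribosomal protein, at -6.27 ± 0.27 (SE; adjusted p = 2.8e-09), and Oaz1, which degrades ornithine decarboxylase, at -6.20 ± 0.18 (SE; adjusted p = 9.2e-11). Ribosomal protein genes have near-identical copies elsewhere in the genome, and the labels do not say how reads were shared between copies.

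Nested genes, meaning those wholly within another gene that runs on the opposite strand, were set apart. Of 444 such genes tested, 57.9% were called: 213 (48.0%) were lower and 44 (9.91%) higher in 129 MN, with a median of -0.96. Of 11196 genes with no opposite-strand overlap, 33.4% were called: 1489 (13.3%) were lower and 2245 (20.1%) higher, with a median of 0.07. Another class of 3190 genes was not nested but had an exon on a gene of the opposite strand. Of these, 43.9% were called: 978 (30.7%) were lower and 421 (13.2%) higher. The other 7 tested identifiers had no match in the annotation. More than 8-fold lower were 39.2% of the nested genes, against 1.94% of those with no overlap and 4.72% of all genes tested. In the class with an exon on a gene of the opposite strand, 310 genes (9.72%) were, with a median of -0.21, so such falls were not limited to nested genes. The nested genes were split by whether exons coincide. Of 247 nested genes with an exon on an exon of the host 157 were more than 8-fold lower, with a median of -5.65, and of 197 with none 17 were, with a median of -0.01.

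The 4 called nested genes with the highest mean level in BL6 MN are described here. Gm20721, a predicted protein-coding gene at chr2:174330319-174346712 (GRCm38, minus strand) inside Gnas, had 0.534 and 0.388 CPM in 129 MN and 1677 to 1953 CPM (median 1729) in BL6 MN. Its host Gnas, the stimulatory G protein subunit, had 1189 and 1220 CPM in 129 MN and 1791 to 2198 CPM (median 1892) in BL6 MN. Gm29233, a long noncoding RNA at chr2:118123451-118124047 (minus strand) inside Thbs1, had 0.134 and 0.456 CPM in 129 MN and 426 to 1576 CPM (median 924) in BL6 MN, while Thbs1, which encodes thrombospondin, had 9752 and 6481 CPM in 129 MN and 4736 to 15427 CPM (median 10011) in BL6 MN. Both nested genes have exons on host exons. The other nested genes have no exon on a host exon. Htra1, a secreted protease inside Fgfr2, changed by -0.95 ± 0.33 (SE; adjusted p = 0.041), with groups that overlapped, and Nucb1, a calcium-binding Golgi protein inside Tulp2, by -0.90 ± 0.18 (SE; adjusted p = 0.0017). The call of Htra1 was lost with the length correction (-0.78, adjusted p = 0.094), with the 9 libraries alone, with a replicate block, and without BL6 MN 1 or 3 or either 129 MN library.

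The 174 nested genes that were more than 8-fold lower had a median level of 0.0228 CPM in 129 MN and of 0 CPM in 129CAS MN, the other deep library, with 25686979 counts. Their median was 3.0 CPM in CAS129 MN, 4.47 CPM in CAST MN and 4.89 CPM in BL6 MN; the 129 MN and BL6 MN levels follow from the selection. The 217 genes with no overlap that were more than 8-fold lower had medians of 0.191 CPM in 129 MN, 0.177 CPM in 129CAS MN, 1.43 CPM in CAS129 MN, 1.26 CPM in CAST MN and 7.01 CPM in BL6 MN, so a low level in 129CAS MN was not limited to nested genes. Among hosts of a well expressed gene, Wdr38, which contains the ribosomal protein gene Rpl35 on the other strand, had 0.356 and 0.456 CPM in 129 MN and 154 to 293 CPM (median 257) in BL6 MN. Per the labels' protocols the libraries were made from random-primed cDNA with no strand-marking kit named, and whether the counting used strand is not stated in those labels. Without nested genes, 2617 genes were higher and 2482 lower, and without any opposite-strand overlap 1871 were higher and 1615 lower. Without nested members the lower glial genes lost Gfap and the higher muscle genes lost Actc1. Counting only members with no overlap left 3 of 5 higher endoderm genes, 3 of 5 lower heat shock genes, 8 of 11 higher imprinted genes, 8 of 10 lower fibroblast genes and 10 of 11 higher floor plate genes, with 0 lower.

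**Figure D4:**
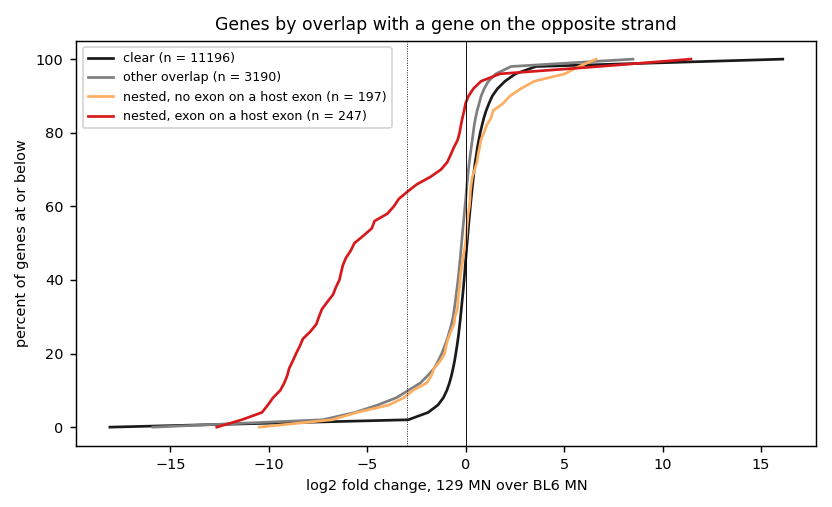
Cumulative percent of genes against log2 fold change (129 MN over BL6 MN), drawn at evenly spaced percentiles, for 4 classes of overlap with a gene on the opposite strand; the dotted line marks 8-fold lower. Nested genes with an exon on a host exon (red) lie to the left, with 157 of 247 more than 8-fold lower, while the other classes centre near 0. Of the other overlap class, 9.72% were more than 8-fold lower.

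Fold changes also followed gene length. Among 8719 protein-coding genes with no opposite-strand overlap, at least 5 CPM in one group and counts in both, the median change was -0.30 in the shortest quintile by exon length and 0.35 in the longest. In the shortest quintile 486 of 1746 genes were lower and 164 higher, and in the longest 90 of 1744 were lower and 624 higher. Across these genes the rank correlation of the change was 0.35 with exon length and -0.21 with GC content, as a description, since genes are not independent replicates. In 129CAS MN the median change over BL6 MN was -0.36 in the shortest and 0.29 in the longest quintile. In CAST MN it was -0.21 and 0.07, and in CAS129 MN -0.13 and -0.23.

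A correction of each library for its own trend over exon length, added after the data were seen, left 2177 genes higher and 2585 lower. Of the 76 tested genes of cytosolic ribosomal proteins, which are short, 62 were lower and 2 higher, with a median of -0.91, and 45 were lower and 3 higher after the correction, with a median of -0.62. The simple epithelium, muscle, fibroblast, inhibitory and interneuron lists kept their counts of 21, 10, 10, 6 and 7 calls in the direction given above, and floor plate had 10 of its 11. Glycolysis held 6 lower calls. Of 15 replication-dependent histone genes, whose short messages lack poly(A) tails, 2 were higher and 3 lower before the correction, and 6 were higher and 1 lower after it.

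**Figure D5:**
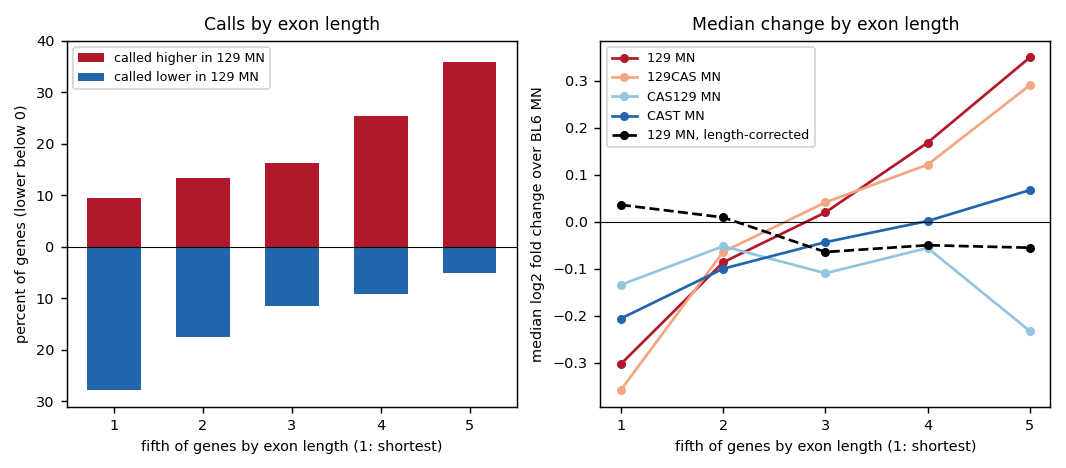
Left, percent of genes in each quintile by exon length that were called higher (red) or lower (blue, drawn below 0) in 129 MN. Right, median log2 fold change over BL6 MN by quintile for 129 MN, 129CAS MN, CAS129 MN and CAST MN, and for 129 MN after the length correction (dashed); the 129 MN medians run from -0.30 to 0.35 and stay within 0.07 of 0 after it.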

How the data were processed

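The authors deposited unnormalised whole-number counts for 27071 gene identifiers. STAR and the build GRCm38 (mm10) are named per the submitters' processing notes. The counting program, its strand setting and any strain genome remain not given in the sources used here. Of 28 columns of counts 8 were matched to no sample and not used. Names and strands came from GENCODE M21 (27031 identifiers matched, 40 did not). Members and the 33 gene lists were chosen with earlier results of these data known.

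Counts were fitted with edgeR 4.0.16 in R 4.3.3 (TMM scaling, glmQLFit, glmQLFTest, 2-sided, Benjamini-Hochberg, threshold 0.05) over the 14 MN libraries (2 129, 7 BL6, 3 CAS129, 1 CAST, 1 129CAS), for genes at 1 CPM or more in at least 2 libraries. The single libraries are assumed to vary like the others. Genes were named by rule: Krt8, Foxa2, Gad1 and Tap1, up to 2 called members per list and direction with the highest level, 10 largest rises and falls among called genes that are not nested with 5 CPM or more and groups that do not overlap, and 4 nested genes. Other genes were chosen after their values were seen, and a few list members counted in the totals are not reported here by name. The fit was tested on simulated data. Floors of 3 counts over a group, 0.0338 CPM in 129 MN and 0.0494 CPM in BL6 MN, cover counting error only. Alternatives included other scalings, DESeq2 1.42.0, other filters, thinning, replicate blocks, leaving out each library, and corrections for exon length and GC content (5-df splines per library).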

Additional observations from a re-analysis of the deposited data

Results flagged for a closer look

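In the 7 BL6 MN libraries, 25 of the 226 genes checked had a single library far from the other 6. Chance would flag about 1 gene in 20 if levels were normally distributed and genes independent. These genes are not independent, and all flags except that of Nucb1 were at the high end. An excess over chance was not tested. BL6 MN 2 was that library for 13 genes. It was highest for the neuronal genes Slc18a3 at 170 CPM, Pclo at 149 CPM, Rims1 at 45.1 CPM, Ntrk3 at 124 CPM and Map2 at 737 CPM. The same library was highest for Bhlhe22 at 60.9 CPM, Glra3 at 46.6 CPM, Map1b at 3298 CPM and Dpysl2 at 264 CPM, for the glial genes Slc1a3 at 34.9 CPM and Gfap at 140 CPM, and for the nested gene Gm20721 at 1953 CPM. It was lowest for the nested gene Nucb1 at 226 CPM.

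BL6 MN 4 was highest for Shh at 11.6 CPM, Cdon at 49.7 CPM, Notch1 at 75.8 CPM, Myh8 at 5.92 CPM and Myod1 at 0.657 CPM. BL6 MN 6 was highest for Prom1 at 11.4 CPM, Ifit1 at 7.41 CPM and Rps10 at 3.01 CPM. BL6 MN 5 was highest for Hist1h4b at 0.434 CPM and Mir692-1 at 0.108 CPM, BL6 MN 7 for Hoxb4 at 46.3 CPM and BL6 MN 1 for Cspg4 at 36.7 CPM. No group had enough libraries for this check other than BL6 MN.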

How the results depend on the processing

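The count of 5397 calls was 5353 with RLE scaling, 6060 with DESeq2, 5117 with the 129 libraries thinned to BL6 depth and 4762 with the exon length correction. Leaving out 1 library gave 2800 to 6324 calls in all, 1385 to 3088 higher and 1415 to 3236 lower, the lowest without 129 MN 2 and the highest without BL6 MN 2. Leaving out every opposite-strand overlap before the fit gave 3486 calls, 1871 higher and 1615 lower, against 3734 calls for the same class in the fit of all genes, 2245 higher and 1489 lower; the cause was not tested. With genes at 0 in a group left out as well there were 3349 calls, 1777 higher and 1572 lower. Nested calls numbered 166 with a filter at 5 CPM, which also tested fewer genes. Over 226 named genes and 23 settings, 4806 of 5079 values kept direction and side of the threshold, 259 were no longer past it, 12 newly passed and 2 changed sign. Those 2 were B2m, at 0.54 with the length correction and 0.49 with length and GC content. Same-numbered libraries of 129 MN and BL6 MN deviated with correlations of -0.076 and 0.462 over 2 pairs, which cannot show whether the numbers pair the libraries; a replicate block gave 3773 calls. With 2 libraries in 129 MN, the spread rests largely on the other groups, and depth in BL6 MN limits genes near the floor.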
